A study of Mus musculus with 4 samples.

Results

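The small proline-rich (Sprr) genes were followed in RNA sequencing libraries of epidermal keratinocytes, the cells that form the outer layer of the skin, from newborn mice. The 10 genes described are Sprr1a, Sprr1b, Sprr2a1, Sprr2a3, Sprr2b, Sprr2d, Sprr2e, Sprr2g, Sprr2h and Sprr3, of 45803 gene symbols in the deposited table. They were selected on their levels in these same libraries, so the differences between genotypes given for them are a description and carry no test. Both groups were at postnatal day 0 and carried Cre recombinase under the keratin 14 promoter (K14Cre), which is active in basal keratinocytes. The control group was K14Cre,Mettl14F/+, with a floxed allele of Mettl14 beside a wild-type one, and the conditional knockout (cKO) was K14Cre,Mettl14F/F. The Mettl14 protein works with Mettl3 to place N6-methyladenosine on RNA. There were 2 control and 2 cKO libraries, numbered 1 and 2 in each group. Nothing in the labels says that they came from separate animals, so the spread between them may be technical.

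Sprr proteins are small, rich in proline, and carry glutamine and lysine residues that transglutaminases join to loricrin, involucrin and other partners. This builds the cornified envelope, the protein shell under the membrane of the dead outermost keratinocytes. The genes sit together in the epidermal differentiation complex. In skin, several Sprr genes are known to be induced by barrier damage, inflammation and oxidative stress, while Sprr3 is best known from oral and oesophageal epithelium.

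Values are FPKM, fragments per kilobase of transcript scaled to the mapped total, summed over the transcripts of a gene. The low values were whole multiples of 1 read in 94.4% to 95.2% of cases, which gave depths of 16893070 to 25691557 reads per library. Mettl14 itself was listed at 7.00 (control 1), 6.40 (control 2), 5.89 (cKO 1) and 3.79 FPKM (cKO 2). The first principal component, with 65.9% of the variance of the 500 most variable genes, placed the libraries numbered 1 at -17.85 (control) and -8.97 (cKO) and those numbered 2 at 7.87 (control) and 18.94 (cKO). Libraries were thus set apart by their number more than by genotype, and differences of the Sprr genes are given within each number as well. The second component, with 25.9%, separated the genotypes, with control at -5.78 and -11.03 and cKO at 11.99 and 4.82. The median log2 difference over all 13817 genes tested was -0.03.

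The family occupies 284.7 kb of chromosome 3 (GRCm38, 92215799 to 92500493), with the Sprr2 genes first, then Sprr1b, Sprr3, Sprr1a and Sprr4. The table held 17 genes with an Sprr symbol, of which 7 are not among the 10. Coding sequences in GENCODE M21 show which of them can be told apart by reads. Sprr2a1 and Sprr2a2 had 100% identical coding sequences, and Sprr2a1 and Sprr2a3 98.8%. Only 7.5% of the 100-nt windows of Sprr2a1 transcripts occurred in no other gene, against 83.4% for Sprr2a3. For Sprr2b and Sprr2e the share was 99.6% and 98.9%, and for Sprr1a, Sprr1b, Sprr2d, Sprr2g, Sprr2h and Sprr3 it was 100%. Single values of Sprr2a1 and Sprr2a3 are therefore uncertain, since neither the read length nor the treatment of reads with several matches is given in the sources used here. GENCODE also places the start of the Sprr2a2 gene inside Sprr2a1.

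The annotated start sites divide the family as well. RefSeq promoter windows of GRCm38.p6, read over the 250 bases before the annotated start, were at hand for 14 Sprr genes, 9 of them among the 10 (all but Sprr2g). Motifs were searched on both strands. TGANTCA, in which N is any base, is a loose form of the site bound by AP-1 factors. It was in 6.75% of 32851 windows of all genes. The octamer ATTTGCAT was in 1.6%, both together in 0.167%, and TATAAA in 12.4%. Of the 10 Sprr2 windows, 7 held both the AP-1 motif and the octamer, 85 to 89 bases apart: Sprr2b, Sprr2d, Sprr2e, Sprr2f, Sprr2h, Sprr2i and Sprr2k. In each of these 7 a TATAAA began 29 bases before the start. None of the motifs was found in the windows of Sprr2a1, Sprr2a2 and Sprr2a3. For Sprr2a3 the window, which ends at 92285353, does not cover the start of its main transcript. That transcript, of 682 nt, is placed 72.8 kb from the start of Sprr2a1, past the window. It held 7.2, 6.82, 12.29 and 44.1 FPKM in control 1, control 2, cKO 1 and cKO 2, nearly all of the gene's level. The bases before its start were not searched. Sprr1b held 1 AP-1 motif and Sprr1a 2, each with a TATAAA at 30 and 43 bases, while Sprr3 held only the TATAAA, at 33. The motif of Sprr1b has A as its middle base, whereas both of Sprr1a have G. The stretches below are shown because they carry the arrangement found in 4 of the 7 listed Sprr2 genes (Sprr2b, Sprr2d, Sprr2e and Sprr2h), and that of Sprr1, with the motifs in capitals, 5′ to 3′ on the strand of the gene.
Sprr2d: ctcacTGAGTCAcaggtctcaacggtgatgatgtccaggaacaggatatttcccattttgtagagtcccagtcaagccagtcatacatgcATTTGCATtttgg
Sprr2e: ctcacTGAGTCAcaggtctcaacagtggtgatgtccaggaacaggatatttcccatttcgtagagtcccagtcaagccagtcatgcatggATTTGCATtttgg
Sprr2b: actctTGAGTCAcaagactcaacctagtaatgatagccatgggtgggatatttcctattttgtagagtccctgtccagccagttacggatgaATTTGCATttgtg
Sprr2h: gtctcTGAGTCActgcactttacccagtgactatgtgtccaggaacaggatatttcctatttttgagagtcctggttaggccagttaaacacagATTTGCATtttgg
Sprr2f: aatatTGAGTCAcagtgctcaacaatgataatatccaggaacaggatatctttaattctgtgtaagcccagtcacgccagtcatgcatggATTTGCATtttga
Sprr1b: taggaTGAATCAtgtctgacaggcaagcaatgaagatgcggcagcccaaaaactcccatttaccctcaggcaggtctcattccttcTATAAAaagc
Sprr1a: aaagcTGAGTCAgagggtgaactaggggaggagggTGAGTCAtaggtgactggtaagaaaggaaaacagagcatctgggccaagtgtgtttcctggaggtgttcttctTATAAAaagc

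The Sprr2d stretch is chr3:92338942-92339044, that of Sprr2e chr3:92351945-92352047, of Sprr2b chr3:92316505-92316609, of Sprr2h chr3:92385482-92385588 and of Sprr2f chr3:92364985-92365087, all on the plus strand. The stretches of Sprr1b, chr3:92438800-92438895, and Sprr1a, chr3:92485915-92486032, lie on the minus strand. Those of Sprr2d and Sprr2e were 95.1% identical, and the lowest identity among the 7 Sprr2 stretches was 65.4%. A match describes letters only. Sprr2f, which was listed at 0, 0.70, 0.19 and 0.57 FPKM in control 1, control 2, cKO 1 and cKO 2, has the same arrangement as Sprr2d. Outside the family 47 genes had both motifs, of which 11 were tested, with a median log2 difference of -0.07 and 0 with both cKO libraries above both control libraries. Of all genes tested 16.2% lay that way, as did 15.6% of the 546 tested genes outside the family with the AP-1 motif. With 11 genes the count of 0 says little, and the part of the motifs in the Sprr values was not tested.

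Sprr1a and Sprr1b were the abundant members and encode envelope proteins that bridge other precursors. Sprr1a was listed at 94.98 FPKM in control 1, 107.51 in control 2, 159.19 in cKO 1 and 156.55 in cKO 2. The groups did not overlap, and the libraries of each group lay close together, at 101 ± 8.86 in control and 158 ± 1.87 in cKO (SD, n = 2 each). The log2 difference, on the log2(FPKM + 1) scale used throughout, was 0.64, with 0.74 within number 1 and 0.54 within number 2. Sprr1b was listed at 39.11, 41.39, 91.77 and 144.11 FPKM in the same order. Here the control libraries were nearly equal while cKO 2 stood above cKO 1, giving log2 differences of 1.21 (number 1) and 1.78 (number 2), or 1.49 over both. Control measured 40.2 ± 1.61 FPKM and cKO 118 ± 37.0 (SD, n = 2 each).

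The makeup of Sprr1 shifted with these values. Sprr1b made up 29.2% and 27.8% of the Sprr1 sum in control 1 and 2, 36.6% in cKO 1 and 47.9% in cKO 2. The sum itself was 134, 149, 251 and 301 FPKM in the 4 libraries, and rested on 1893, 2831, 3454 and 6315 reads. It was thus 1.87-fold higher within number 1 and 2.02-fold within number 2, so both numbers gave nearly the same size. Coding sequences of Sprr1a and Sprr1b were 78.8% identical, and their 100-nt windows were all unique, so reads of that length would tell them apart.

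**Figure D1:**
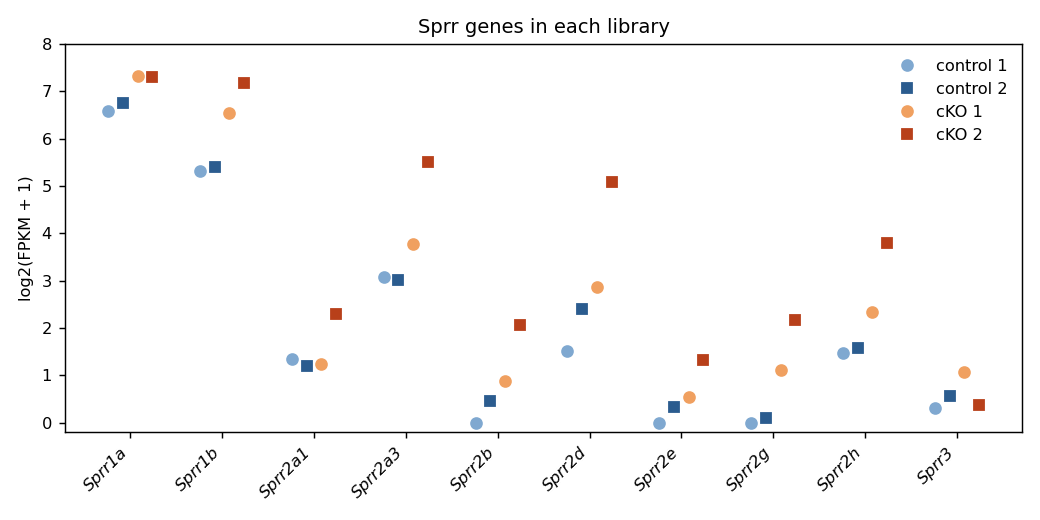
Level of the 10 listed Sprr genes in each library on the log2(FPKM + 1) scale; circles are the libraries numbered 1 and squares those numbered 2, blue for control and orange or red for cKO. Both cKO points lie above both control points for every gene except Sprr2a1 and Sprr3, and cKO 2 is the highest point for 8 of the 10.

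The Sprr2 genes, smaller envelope proteins present in several copies in the mouse, were listed far lower, and each of the 7 listed was highest in cKO 2. Sprr2d was listed at 1.86 FPKM in control 1, 4.27 in control 2, 6.34 in cKO 1 and 32.73 in cKO 2, from 22, 68, 73 and 573 reads. The exact 95% Poisson intervals of control 2 and cKO 1 overlapped, at 3.32 to 5.41 FPKM in control 2 and 4.97 to 7.97 in cKO 1, while that of cKO 2 was 30.1 to 35.5. The log2 difference was 2.02, with 1.36 within number 1 and 2.68 within number 2. Such intervals cover counting error only.

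Sprr2a3 was the most abundant Sprr2 gene, at 7.43, 7.05, 12.77 and 44.73 FPKM. The counting intervals of the control libraries overlapped, cKO 1 was 1.72-fold above control 1, and cKO 2 was 6.34-fold above control 2. Sprr2h was listed at 1.76, 1.99, 4.09 and 12.88 FPKM, again with close control libraries and a wide gap between the cKO libraries. Its log2 difference was 1.55, with 0.88 and 2.21 within the numbers, and that of Sprr2a3 was 1.61, with 0.71 and 2.51.

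Sprr2g, which GENCODE classes as a polymorphic pseudogene, was listed at 0 and 0.07 FPKM in the control libraries and at 1.18 and 3.47 in the cKO libraries. These values stand for 0, 1, 13 and 58 reads, so nearly all its signal came from cKO. It passed the filter on low values (1 FPKM or more in 2 or more libraries) through the cKO libraries alone. Sprr2b was listed at 0, 0.38, 0.83 and 3.18 FPKM and Sprr2e at 0, 0.26, 0.46 and 1.5, from 0, 7, 11 and 64 reads and 0, 4, 5 and 25 reads. For both, the counting intervals of control 2 and cKO 1 overlapped, and only cKO 2 stood clear of both control libraries. For Sprr2e the intervals of cKO 1 and cKO 2 overlapped as well. Neither passed the filter.

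As listed, Sprr2a1 did not follow the other Sprr2 genes in cKO 1. Its single values are uncertain, since only 7.5% of its 100-nt windows occurred in no other gene. It was listed at 1.53, 1.29, 1.36 and 3.91 FPKM, so cKO 1 lay between the control libraries and cKO 2 alone was high. Its log2 difference was -0.10 within number 1 and 1.10 within number 2, and without cKO 2 it was -0.028 over both. Its near-copy Sprr2a2 was listed at 0.42, 0.54, 0.35 and 0.53, with overlapping groups.

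Added together, the 7 listed Sprr2 genes came to 12.6 FPKM in control 1, 15.3 in control 2, 27.0 in cKO 1 and 102.4 in cKO 2, from 222, 330, 388 and 2089 reads. The sum was 2.15-fold higher within number 1 and 6.69-fold within number 2, and all 7 genes had the larger log2 difference within number 2. Between the cKO libraries it differed 3.79-fold, against 1.22-fold between the control libraries. Control measured 13.9 ± 1.93 FPKM and cKO 64.7 ± 53.3 (SD, n = 2 each), so the spread within cKO was nearly as large as its mean. The log2 difference of 1.85 became 0.913 without cKO 2 and 2.797 without cKO 1. Reads scaled by library depth alone, which ignores transcript length, gave 1.80-fold and 5.75-fold within the numbers. With all Sprr2 genes of the table in the sum the log2 difference was 1.81.

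**Figure D2:**
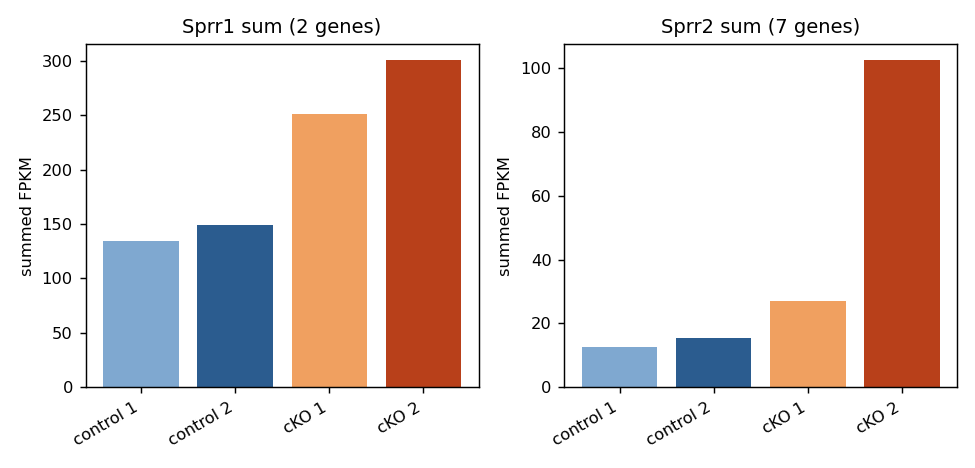
Summed FPKM of Sprr1 (2 genes, left) and of the listed Sprr2 genes (7 genes, right), with 1 bar per library and axes starting at 0. Sprr1 is at 251 and 301 in cKO 1 and cKO 2, whereas Sprr2 is at 27.0 and 102.4.

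The genes did not hold constant proportions within the Sprr2 sum. Sprr2d made up 14.8%, 27.9%, 23.5% and 32.0%, so its share also differed between the control libraries. Sprr2a1 made up 12.2%, 8.43%, 5.03% and 3.82% of the summed FPKM in the same order. Because its main transcript is 3003 nt long, the same gene held 36.0%, 27.5%, 17.8% and 14.4% of the recovered reads. On both scales its share was lower in each cKO library than in each control library. This share depends on how reads shared with Sprr2a2 and Sprr2a3 were assigned, which is not given in the sources used here.

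**Figure D3:**
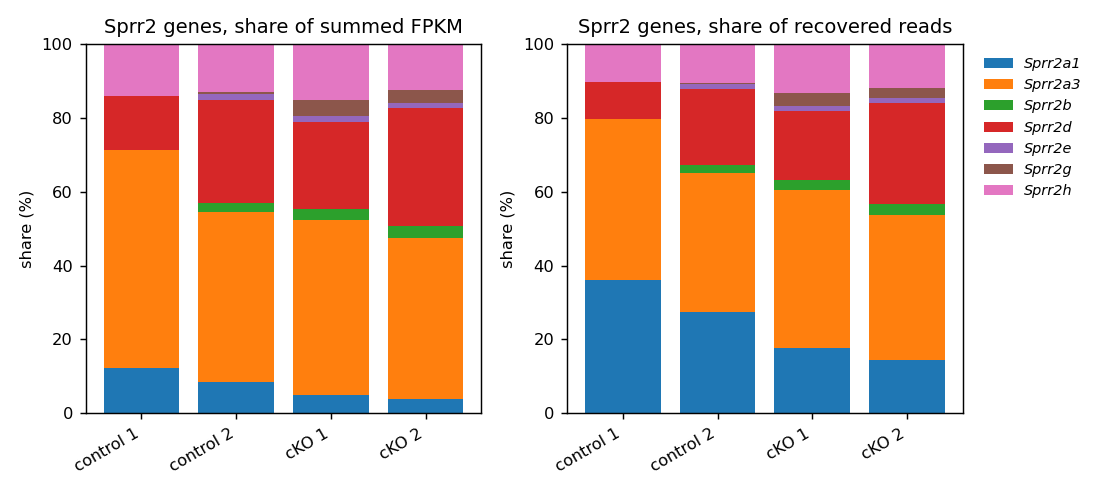
Share of each listed Sprr2 gene, in percent, of the summed FPKM (left) and of the recovered reads (right) in each library. Sprr2a1 takes 3.82% to 12.2% of FPKM but 14.4% to 36.0% of reads.

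Sprr3, the oral and oesophageal member, was listed at 0.24, 0.49, 1.11 and 0.29 FPKM, from 5, 14, 23 and 9 reads. It was highest in cKO 1, not in cKO 2, and its groups overlapped. The keratins Krt4 and Krt13, which mark oral and oesophageal epithelium, were also highest in cKO 1: Krt4 was listed at 2.21, 3.73, 6.08 and 4.83 FPKM and Krt13 at 1.65, 3.85, 7.55 and 3.62. Of the 4 markers on that list 2 were expressed enough to be tested, and the summed level of the 4 was 4.67, 7.95, 14.4 and 9.12 FPKM. Their part in the Sprr3 values was not tested.

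The Sprr genes outside the 10 were listed at 0 or at low values and none passed the filter. Sprr2k was listed at 0.45, 0.34, 0.65 and 0.98 FPKM, Sprr2i at 0.09, 0.07, 0.29 and 0.38, and Sprr2j-ps at 0, 0, 0.61 and 0.34, each with both cKO libraries above both control libraries. These values rested on 5, 5, 7 and 16 reads, on 1, 1, 3 and 6, and on 0, 0, 7 and 6. For each of these genes the counting intervals of the groups overlapped. Sprr4 was listed at 0.25, 0.37, 0.26 and 0.84, with overlap, as were Sprr2a2 and Sprr2f above. Sprr2c-ps was listed at 0 in all 4 libraries. The lowest of the 10 and the highest of these genes therefore lie in the same range of levels, under about 1 FPKM in most libraries.

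Over the 10 genes, 8 had both cKO libraries above both control libraries, and Sprr2a1 and Sprr3 overlapped. Of all genes tested, 16.2% lay that way and 16.6% had both cKO libraries below both control libraries. Of the 7 members that passed the filter 6 did, a number the choice of members had already set. For 5 genes, Sprr1a, Sprr1b, Sprr2a3, Sprr2g and Sprr2h, the counting intervals of both cKO libraries also lay above those of both control libraries. For Sprr2a3 these intervals do not cover the uncertain assignment of reads shared with Sprr2a1 and Sprr2a2. Such intervals were made for Sprr genes only, so no share over all genes tested can stand beside this count. Sprr1b, Sprr2d and Sprr2g had a log2 difference of at least 1 within both numbers, as did 0.42% of all genes tested. The choice of members had shaped this count as well, and Sprr2g passed the filter through the cKO libraries alone. With limma, 0% of genes passed an adjusted p of 0.05 (0 of 13817, smallest adjusted p = 0.456). Without adjustment limma gave 686 genes a p under 0.05, 454 of them higher in cKO, and limma-voom on recovered reads also called 0.

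**Figure D4:**
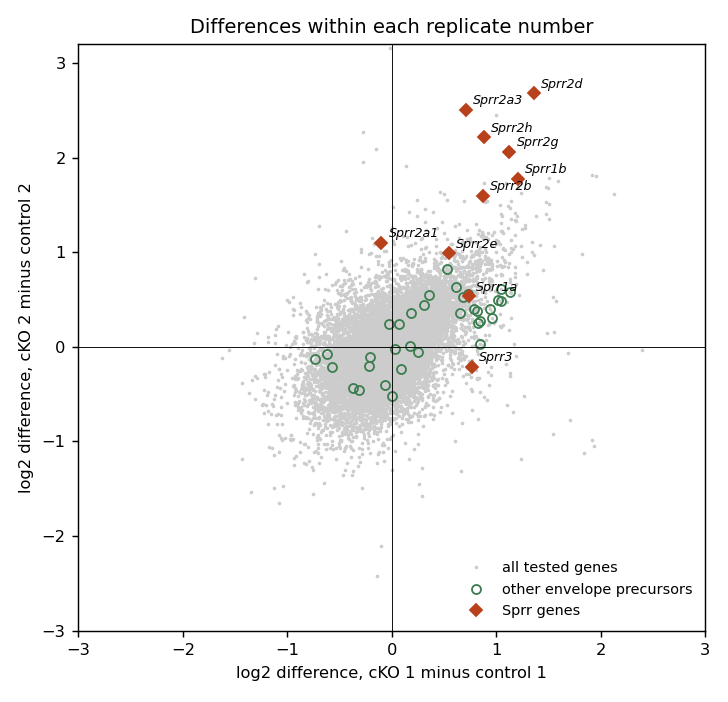
Log2 difference, cKO minus control, within number 1 (x axis) and within number 2 (y axis) for all tested genes (grey), envelope precursors outside the family (green circles) and the 10 Sprr genes (red diamonds, also those not tested); 17 tested genes lie beyond the axes. Every Sprr2 gene lies higher on the y axis than on the x axis, from Sprr2a1 (-0.10 and 1.10) to Sprr2d (1.36 and 2.68), while Sprr1a lies at 0.74 and 0.54.

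The genes around and inside the cluster did not move as one. Loricrin, Lor, the main envelope protein, lies on one side of the family and was listed at 105, 134, 125 and 128 FPKM, with overlapping groups. Involucrin, Ivl, lies on the other side and followed the library number, at 171 (control) and 181 (cKO) for number 1 against 90.1 and 76.5 for number 2. Between Lor and Sprr2a1, Prr9, another proline-rich gene of the complex, was listed at 35.4, 52.5, 51.6 and 93.3. Next to Sprr4, 2310046K23Rik was listed at 5.19, 9.02, 13.99 and 23.44, with cKO above control and log2 differences of 1.28 and 1.29 within the numbers. Of 7 other genes inside the cluster only Gm9774 was tested, at 0.54, 0.83, 1.79 and 1.51 FPKM, and it passed the filter through the cKO libraries alone.

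**Figure D5:**
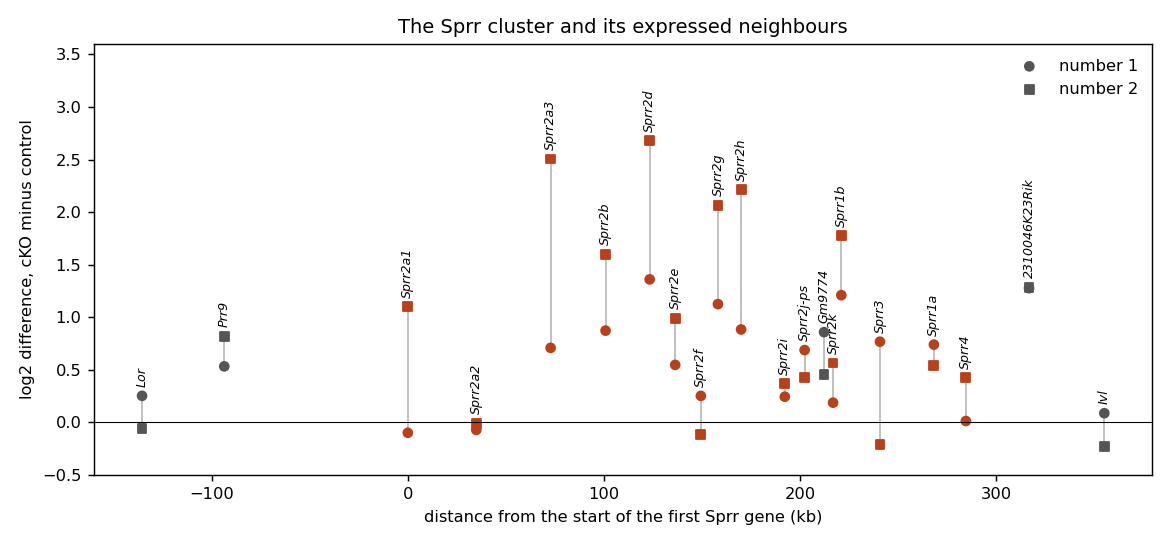
Log2 difference, cKO minus control, within number 1 (circles) and number 2 (squares) against distance in kb from the start of Sprr2a1, for Sprr genes (red) and tested neighbours (grey). Lor (0.25 and -0.06) and Ivl (0.09 and -0.23) at the flanks lie near 0, and the gap between circle and square is wide for Sprr2a3 (0.71 and 2.51).

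Set against Lor in the same library, the Sprr1 sum was 1.28 and 1.12 times its FPKM in control and 2.01 and 2.34 times in cKO. The Sprr2 sum was 0.120 and 0.115 times Lor in control, 0.217 in cKO 1 and 0.799 in cKO 2. Against Tgm3, the order changed: the Sprr1 sum was 2.69 and 3.11 times Tgm3 in control and 2.25 and 2.43 times in cKO. Tgm3 is an epidermal transglutaminase that joins Sprr proteins to the envelope. It was listed at 49.9, 47.9, 112 and 123 FPKM, with a log2 difference of 1.25 ± 0.21 (SE; 1.14 and 1.35 within the numbers) and limma's adjusted p = 0.959. The ratio of Sprr1 to Tgm3 was thus lower in both cKO libraries, unlike that to Lor. The ratio of Sprr2 to Tgm3 was high in cKO 2 alone, at 0.252, 0.320, 0.242 and 0.829. Against Ivl, Krt10 and Lce3c the groups of the Sprr1 sum overlapped. It was 0.785, 1.65, 1.38 and 3.93 times Ivl, and 102, 29.1, 133 and 41.0 times the late envelope gene Lce3c. The Sprr2 sum was 9.53, 2.99, 14.4 and 13.95 times Lce3c, so on that scale both cKO libraries were alike while the control libraries were not. Lce3c itself was listed low, at 1.32, 5.12, 1.88 and 7.34 FPKM. Against Ivl (0.0737, 0.170, 0.149 and 1.34) and Krt10 the groups of the Sprr2 sum overlapped. Against Flg and Krt14 both sums had cKO above control.

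Among 8 enzymes of envelope crosslinking and their regulators, 3 had cKO above control (Tgm2, Tgm3 and Tgm5), 0 below and 5 overlapped, with a median log2 difference of 0.27 (0.24 and 0.30 by number). Over all genes tested 16.2% lay above and 16.6% below. The proteases Ctsd and Ctsl were listed at 425, 304, 442 and 375 and at 57.9, 68.9, 58.6 and 65.9. Tgm1, the membrane-bound transglutaminase of upper layers, was listed at 72.9, 43.6, 97.4 and 71.6 and overlapped. Of 41 envelope precursors outside the family 34 were tested: 2 lay above (Evpl and Krtdap), 2 below (Flg2 and Cnfn) and 30 overlapped. Their median log2 difference was 0.41, but the median difference of number 2 minus number 1 was 1.22, so this list varied more with the library number than with genotype. Within number 1 and within number 2 the median was 0.34 and 0.26. Compared by number, 21 of the 34 were higher in cKO within both numbers and 8 lower, against 31.8% and 37.6% of all genes tested. All 16 late cornified envelope (Lce) genes tested were among the 21, as was Kprp, at 7.34, 32.9, 11.7 and 51.6. Lce1a1 was listed at 28.2, 123, 59.1 and 189. Filaggrin, Flg, was listed at 4128, 2455, 3187 and 1822, and Krtdap at 3562, 3584, 4007 and 3616. Dmkn was listed at 1595, 1281, 1676 and 1515 and Sbsn at 1678, 659, 1449 and 609. No gene of these lists or of those that follow passed limma's test.

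Transcription factors with reported action on Sprr promoters were mixed. Of 31 on the list 30 were tested, 9 with cKO above control, 4 below and 17 overlapping, with a median of 0.10 (0.21 for number 1 but -0.03 for number 2). The shares over all genes tested were 16.2% above and 16.6% below. Klf4, a zinc finger factor of the differentiating layers, was listed at 109, 136, 185 and 172 FPKM, and Zfp750, a p63 target that drives terminal differentiation, at 77.1, 78.9, 123 and 114. Grhl1, a grainyhead factor, was listed at 122, 113, 145 and 123, and Cebpa at 77.2, 106, 99.5 and 129, the latter with overlap. The AP-1 genes differed among themselves, and those given, like Ehf, were picked after their values were seen. Jund was listed at 21.6, 26.0, 31.0 and 36.0, whereas Fos was listed at 66.2, 60.8, 53.4 and 25.7 and Fosl2 at 70.2, 88.3, 59.9 and 64.8. Ehf, an ETS factor of epithelia, was listed at 3.48, 4.82, 7.87 and 7.76.

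Pathways known to induce Sprr genes were mixed. NRF2, the factor of the oxidative stress response, is encoded by Nfe2l2, which was listed at 37.4, 37.7, 48.5 and 48.2 FPKM; it was picked after its values were seen. Of 17 NRF2 target genes 5 lay above, 0 below and 12 overlapped, with a median of 0.10 (0.07 and 0.17 within the numbers). For this list and the interleukin list below, the shares over all genes tested were 16.2% above and 16.6% below. The abundant targets Tkt (95.9, 105, 80.8 and 102), Taldo1 (57.4, 83.9, 64.7 and 102) and G6pdx (47.6, 56.4, 51.7 and 61.6) overlapped, and Pgd was listed at 35.6, 33.7, 36.3 and 38.2. Slpi, a protease inhibitor on that list, was the only gene of it at least 1 higher on the log2 scale within both numbers (1.34 and 1.00). Such differences were found in 0.42% of all genes tested. Slpi was listed at 0.99, 0.63, 4.04 and 2.26, so it passed the filter through the cKO libraries alone. Of 13 tested interleukin and growth factor ligands and receptors 4 lay above (Il17ra, Il4ra, Areg and Ereg), 2 below (Il6ra and Il6st) and 7 overlapped, with a median of 0.14 (0.13 and 0.30 within the numbers). Il17a, Il17f, Il22 and Il4 were listed at 0 in every library. The abundant genes of the list were Il13ra1 (36.1, 40.6, 41.8 and 33.4), Egfr (42.7, 34.5, 36.6 and 32.9), Il22ra1 (20.7, 13.6, 21.4 and 17.2) and Il6st (36.2, 35.5, 33.4 and 32.1). Of the ligands of the EGF receptor, Areg and Ereg lay above control, while Hbegf, Tgfa and Epgn overlapped.

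Stress keratins, alarmins and stefins came to 7 above, 1 below and 11 overlapping of 19 tested, with a median of 0.29 (0.31 and 0.34 within the numbers). Over all genes tested 16.2% lay above and 16.6% below. S100a8, S100a9 and Stfa2 were at least 1 higher on the log2 scale within both numbers, as were 0.42% of all genes tested. S100a8 and S100a9, the subunits of calprotectin, were listed at 5.92, 6.51, 15.1 and 24.01 and at 3.26, 8.76, 15.0 and 33.3 FPKM, both highest in cKO 2. Krt16, a keratin of activated keratinocytes picked after its values were seen, was listed at 257, 119, 289 and 320, while Krt17 lay below control in both cKO libraries, at 1087, 1103, 881 and 923. Krt6a (128, 93.9, 114 and 201) and Krt6b (150, 46.8, 124 and 229), also picked after their values were seen, overlapped. Both were lower in cKO 1 than in control 1 and highest in cKO 2. The abundant stefin genes Stfa3 (7165, 12117, 8301 and 10370), BC100530 (2850, 4822, 4174 and 4815) and Stfa1 (1450, 2334, 1713 and 1788) overlapped.

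By likeness of profile over the 4 libraries among 9476 genes with a mean of at least 5 FPKM, measured as the Euclidean distance of centred log2 values, the Sprr1 sum had close neighbours. Among the 6 nearest were Nlrx1 (distance 0.060), Sfn (0.071), March9 (0.097), Ythdf2 (0.103) and Med29 (0.112). Sfn, the keratinocyte 14-3-3 protein, was listed at 583, 659, 1047 and 1252 FPKM. The Sprr2 sum had none so close: its 6 nearest were Mrpl43 (0.857), S100a9 (0.863), Tst (0.868), Trex1 (0.919), Rpl17 (0.946) and S100a8 (0.965). Of these, Rpl17 shared the single high library, at 56.1, 58.8, 50.4 and 253. With 4 libraries these distances describe the profiles and carry no test.

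In bulk RNA, fewer cells of a type and less RNA per cell cannot be told apart, and the layer markers give the cell makeup only in that sense. For all the layer counts, the shares over all genes tested were 16.2% above and 16.6% below. Of 8 basal markers 0 lay above, 3 below (Krt15, Itga6 and Trp63) and 5 overlapped, with a median of -0.42 (-0.54 and -0.35 within the numbers), and their summed level was 3874, 4995, 2481 and 3883 FPKM. Krt14 was listed at 2176, 2550, 1435 and 2195 and Krt5 at 897, 1332, 500.4 and 968. Of 7 tested spinous markers 2 lay above and 5 overlapped, with a sum of 23378, 12427, 21868 and 14239, high in the libraries numbered 1. Krt1 was listed at 0 in every library, although it is a main spinous keratin. Of 10 granular markers 3 lay above, 2 below and 5 overlapped, with a sum of 6236, 3998, 5200 and 3792. These sums are carried by a few abundant genes, and single markers differed from them. Highest in cKO 2 were granular Asprv1 (584, 558, 708 and 929), Tgm3 and Krt2 (0.86, 0.52, 2.42 and 4.03), and spinous Calm4 (1737, 2291, 3015 and 3203). Krt2, counted among the granular markers above control, passed the filter through the cKO libraries alone. The part of the cell layers in the Sprr values was not tested.

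Markers of other cells were measured beside them, and over all genes tested 16.2% lay above and 16.6% below. All 6 T cell genes found in the table lay below control, with summed levels of 81.9, 85.8, 38.8 and 46.5 FPKM and Cd3g at 39.0, 37.8, 18.3 and 21.04. Of 7 Langerhans cell and macrophage genes 4 lay below and 3 overlapped, with sums of 368, 474, 225 and 357. Of 7 melanocyte genes 2 lay below and 5 overlapped (537, 457, 414 and 425), and of 6 fibroblast genes 2 lay below and 4 overlapped (116, 114, 84.6 and 92.0). Hair follicle genes overlapped in 8 of 8, with sums of 190, 467, 214 and 640.3, high in the libraries numbered 2. Hair shaft genes overlapped in 7 of 7 (23.7, 63.3, 25.7 and 71.6), and sebaceous genes in 6 of 7 with Fasn above (275, 381, 293 and 473). Neutrophil markers summed to 0.99, 1.63, 0.51 and 1.35, endothelial ones to 1.24, 0.79, 0.90 and 1.72, and skeletal muscle ones to 2.66, 1.09, 2.78 and 0.67, with 0 of 7, 0 of 4 and 1 of 6 genes tested and Elane listed at 0. The part of these cell types in the Sprr values was not tested.

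Gene structure moved with the difference between genotypes as well. The most abundant transcripts of the listed Sprr genes have 1 to 3 exons, and all but those of Sprr2a1 (3003 nt) and Sprr3 (1222 nt) are under 1000 nt. The 670 tested protein-coding genes with 2 exons had a median log2 difference of 0.17, and 34.0% of them had both cKO libraries above both control libraries. For the 121 of these with transcripts under 1000 nt the median was 0.44 and the share 35.5%, whereas the median was -0.07 and the share 12.02% for the 6041 genes of over 8 exons. The median of 0.44 was the value of Lce1m, so the class of 121 includes envelope precursors outside the Sprr family. All 1017 genes with transcripts under 1000 nt had a median of 0.15 and a share of 21.6%. For the 393 genes of 1 exon these were 0.08 and 18.8%. The part of exon number and length in the Sprr differences was not tested.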

How the data were processed

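RNA was measured in 2 control and 2 cKO libraries, grouped by their labels. Libraries were made with the NEBNext Ultra kit, per the labels' protocols. fastp, HISAT2, HTSeq and the build GRCm38 are listed without versions, per the submitters' processing notes. The annotation, and how values were computed, is not given in the sources used here. A table was deposited by the authors with 110295 transcripts, and its unit was read as FPKM from the values themselves (RPKM would look alike). Its control columns carry a wild-type name although the labels give a heterozygous genotype. Exact zeros can be failed estimates, so they are given as listed at 0. In 162 rows a date stood for the symbol, which was restored from the transcript ID.

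FPKM were summed per symbol (45803), and 13817 genes reaching 1 FPKM in 2 or more libraries were tested with limma 3.58.1 in R 4.3.3 (moderated test with a mean-variance trend, genotype only, Benjamini-Hochberg), after a log2 transform with a pseudocount of 1, which shrinks differences of low genes. Reads were recovered from FPKM, transcript length (GENCODE M21, holding 98.1% of transcripts) and the implied depth, with a tolerance of 0.2 reads. Python 3.11.15, numpy 2.4.6, pandas 2.3.3, scipy 1.17.1 and matplotlib 3.10.9 served for the rest. Groups were called apart where both cKO libraries lay beyond both control libraries.

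The members and gene lists were chosen with earlier results of these data known. Named by rule were all Sprr genes, the 4 most abundant genes of each pathway list, neighbours of the cluster and the 6 genes nearest in profile; others are said to be picked after their values were seen, complete a count or serve as a ratio's denominator. The 2 most abundant genes of each marker list also fell under the rule, and not all are printed. One gene that the likeness rule names is left out of the text. The alternatives tried were limma-voom on recovered reads, 2 other scalings, 2 other filters, a pseudocount of 0.1, the replicate block, main transcripts only, removal of a length trend and leaving out each library.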

Additional observations from a re-analysis of the deposited data

How the results depend on the processing

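The difference of the Sprr1 sum (0.95) and of the Sprr2 sum (1.85) was positive under all 13 alternatives. With 2 libraries in each group this says little: the block and the other filters cannot change these differences, and leaving out a library moves them by an amount that the spread between libraries sets. Leaving out single libraries put the Sprr1 sum between 0.824 and 1.084 and the Sprr2 sum between 0.913 and 2.797. Of 130 values of single members under alternatives, 7 moved by more than 1 SD and 2 took the other sign: Sprr2a1 was at -0.028 without cKO 2 and Sprr3 at -0.075 without cKO 1. Summing all Sprr2 genes, an alternative chosen after seeing the data, gave 1.81. Among all genes limma called 0, and 9 to 71 when a library was left out, which leaves 1 library in a group that is assumed to vary like the other.

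With the replicate block 900 genes were called, 626 higher and 274 lower. The labels do not state that libraries of the same number are paired, and there are only 2 numbers; deviations of same-numbered libraries from their group means correlated at 0.722 across genes. Depth limits the low members: Sprr2b, Sprr2e, Sprr2g and Sprr3 rested on 0 to 14 reads in each control library.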
